A study of Homo sapiens with 21 samples.

Results

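Baseline expression was described in the Control libraries of SK-N-BE(2), an established human neuroblastoma line with amplified MYCN. The Control cells were chosen by their labels and make up 3 of the 21 libraries of a study that silenced the mSWI/SNF subunits ARID1A and ARID1B with shRNAs. These cells are not naive: like the silenced cells, they were transduced with lentivirus, here carrying a non-silencing shRNA, and RNA was taken 72 h later from cells grown in Iscove's medium with 20% serum. The design text describes the libraries as biological triplicates, and all values come from 1 line in culture. The silenced libraries were not used, and no condition is compared with another.

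Neuroblastoma arises from the sympathoadrenal branch of the neural crest, which gives rise to sympathetic neurons and to the chromaffin cells of the adrenal medulla. In these tumours a set of transcription factors that includes HAND2, GATA3 and ISL1 holds an adrenergic state, in which catecholamine enzymes and dense-core granule proteins are made, while a second set that includes PRRX1 marks a mesenchymal state. MYCN is the member of the MYC family that is amplified in the aggressive form of the disease, and it binds DNA as a dimer with MAX.

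The Control libraries held 30579746, 31829634 and 34973565 reads on genes. Levels are given as TPM, for which reads are divided by gene length and every library is scaled to the same total, so that genes can be set side by side. At 1 TPM or more in all 3 libraries, 12146 of 19897 protein-coding genes were detected (61.0%). A further 3608 protein-coding genes had 0 reads in every library. For a gene of 1 kb, the 3 reads that a count of 0 still allows correspond to 0.319 to 0.368 TPM, a limit that covers counting error only. The levels of 63 protein-coding genes reached 1000 TPM and those of 1499 lay between 100 and 1000 TPM. Counts of detected genes in the lists below are to be read against the 61.0%.

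All 4 marker genes of these cells, HAND2, GATA3, MYCN and ISL1, were among the 550 highest protein-coding genes with merged exon lengths. With median transcript lengths GATA3 and ISL1 were at ranks 1945 and 1579, and by reads at ranks 867 and 1184. Their summed level was 5827, 6015 and 5933 TPM in the 3 libraries. Of 8 lists of markers of other cell types, 4 had no member detected and 4 had 2 or 3. None of 6 forebrain neuron markers, 5 pluripotency markers, 6 endothelial markers and 6 adrenal cortex markers reached 1 TPM in all libraries, and they summed to at most 0.0875, 0.130, 1.29 and 1.503 TPM. SOX10 and FOXD3, which define Schwann cell precursors, had 0 reads, and the 8 Schwann markers summed to 7.45 to 8.56 TPM, mostly S100B. PTPRC, the pan-leukocyte phosphatase CD45, was the highest of 6 leukocyte markers, with 340, 363 and 415 reads and 4.68 ± 0.129 TPM (SD, n = 3), while CD3E was at 0 and LYZ had 1 read per library. The leukocyte list had 2 members at 1 TPM or more and summed to 7.13 to 7.83 TPM. Of 7 epithelial markers 3 reached 1 TPM, with a sum of 8.11 to 8.78 TPM, KRT5 at 0 and CDH1 at 1 read. Of the 7 muscle and fibroblast markers, MYOG was at 0, but the matrix proteoglycan gene LUM stood at 379 ± 4.71 TPM and carried most of the sum of 406 to 417 TPM. Whether these transcripts came from the neuroblastoma cells or from other cells was not tested.

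The highest single transcripts were mitochondrial, while genes encoded in the nucleus took most of the reads. The 10 genes with the most reads together held 7.20% ± 0.128 of reads, and the 100 highest held 19.2% ± 0.186. The 37 genes encoded by the mitochondrial genome took 6.49% ± 0.142 of reads, and 23.8% ± 0.447 of TPM, in which short genes weigh more. MT-CO1, which encodes a catalytic subunit of cytochrome c oxidase, was first in each library at 41867, 42641 and 43087 TPM. MT-CO3 (38728 TPM), MT-CO2 (29707 TPM), the ribosomal RNA MT-RNR2 (20598 TPM), MT-ATP6 (18277 TPM), MT-ND4 (18173 TPM), MT-ND1 (16346 TPM) and MT-ND2 (13069 TPM) followed. MT-ATP8, MT-ND4L, MT-CYB, MT-ND5 and MT-ND3 had 10385, 9003, 7366, 5453 and 4509 TPM.

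**Figure D1:**
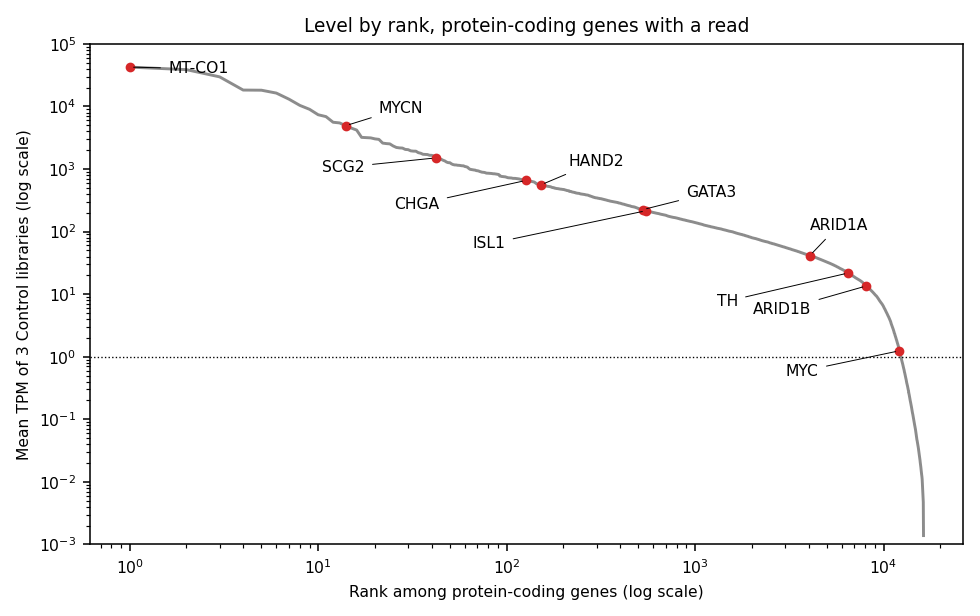
Mean TPM of the 3 Control libraries (log scale) against rank among protein-coding genes (log scale), for genes with a read. The dotted line marks 1 TPM. MYCN lies at rank 14, HAND2 at rank 152, GATA3 and ISL1 together at ranks 528 and 550, and MYC close to 1 TPM.

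Above MYCN stood only 2 nuclear genes, TMSB10, the actin-sequestering thymosin, at 6883 ± 148 TPM, and the translation elongation factor EEF1A1 at 5591 ± 87.5 TPM. MYCN itself (ENSG00000134323, chr2:15940564-15947007, plus strand) had 102470, 110324 and 120920 reads, or 4837, 5002 and 4941 TPM, and was at rank 14 in each of the 3 libraries. Its reads were 0.342% ± 0.00642 of all reads. The 3 values lie within a narrow band, above those of the glycolytic enzyme GAPDH (4260, 4102 and 4223 TPM) and of ACTB, cytoplasmic beta-actin (3182, 3185 and 3247 TPM). The place of MYCN depends on the length it is divided by. With the longest annotated transcript of each gene it had 3742 TPM and rank 16, below GAPDH (5066 TPM) and ACTB (3815 TPM). With the median transcript length it had 1574 TPM and rank 42, and without any length correction its reads put it at rank 9. HSP90AB1, a cytosolic chaperone (3169 TPM), and TUBB, a beta-tubulin (3145 TPM), completed the 20 highest genes. RGS5, a regulator of G protein signalling, came next among nuclear genes at 3032 ± 67.4 TPM. Ribosomal protein genes took 4.74% ± 0.0731 of reads, and 83 of 86 were detected, led by RPS2 at 2978 TPM.

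Long non-coding genes took 1.23% ± 0.0261 of reads, and 1349 of 14862 (9.08%) were detected. The highest was H19, an imprinted transcript next to IGF2, with 1222, 1286 and 1258 TPM. KC877982.1 (336 ± 14.0 TPM), NORAD (273 ± 2.80 TPM), a cytoplasmic RNA that binds PUMILIO proteins, and the snoRNA hosts GAS5 (254 ± 9.90 TPM) and SNHG29 (209 ± 1.63 TPM) followed. H19 lay far above them in every library, the highest value of KC877982.1 being 350 TPM.

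Sequence before the start of the genes around which the report turns is shown here, since the levels below are set beside letters found in it. Each line gives the 120 bases before the transcription start of the gene (RefSeq, GRCh38.p14, 5′ to 3′ on the strand of the gene). Capitals mark 5 motifs, each on either strand. They are the GC box GGGCGG bound by SP factors, the element CCAAT bound by NF-Y, the TATA box searched as TATAAA, the E-box of the MYC and MAX dimer searched as CACGTG, and the cyclic AMP response element (CRE) TGACGTCA. The transcription factor genes come first and the granule genes after them. The window of MYCN is chr2:15940430-15940549 (plus strand), of HAND2 chr4:173530230-173530349 (minus), of ISL1 chr5:51383328-51383447 (plus), of PHOX2A chr11:72244177-72244296 (minus), of CHGA chr14:92923030-92923149 (plus), of VGF chr7:101165570-101165689 (minus) and of VIP chr6:152750677-152750796 (plus).
MYCN: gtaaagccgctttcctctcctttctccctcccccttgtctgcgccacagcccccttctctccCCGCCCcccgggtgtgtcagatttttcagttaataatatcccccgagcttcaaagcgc
HAND2: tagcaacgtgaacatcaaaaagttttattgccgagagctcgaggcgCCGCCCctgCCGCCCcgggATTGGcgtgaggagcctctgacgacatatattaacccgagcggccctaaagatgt
ISL1: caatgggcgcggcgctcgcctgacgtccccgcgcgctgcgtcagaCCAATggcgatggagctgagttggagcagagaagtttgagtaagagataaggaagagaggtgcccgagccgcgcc
PHOX2A: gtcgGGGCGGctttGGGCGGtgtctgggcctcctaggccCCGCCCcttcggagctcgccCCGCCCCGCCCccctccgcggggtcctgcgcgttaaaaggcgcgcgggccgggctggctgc
CHGA: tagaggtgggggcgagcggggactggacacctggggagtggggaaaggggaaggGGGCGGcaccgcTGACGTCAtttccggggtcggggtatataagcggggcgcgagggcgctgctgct
VGF: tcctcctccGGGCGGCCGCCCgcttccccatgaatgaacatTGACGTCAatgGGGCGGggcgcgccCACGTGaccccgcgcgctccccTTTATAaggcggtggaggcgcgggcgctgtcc
VIP: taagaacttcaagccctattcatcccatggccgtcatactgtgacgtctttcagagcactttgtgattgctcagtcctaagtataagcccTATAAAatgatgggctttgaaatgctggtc
MYCN held 1 GC box, 58 bases before its start, PHOX2A held 5 and HAND2 held 2. HAND2 and ISL1 held a CCAAT element 55 and 75 bases before the start. CHGA and VGF held a CRE at 54 and 79 bases, and VGF also an E-box at 54 bases and TATAAA at 32 bases. VIP held TATAAA at 30 bases and no full match to the other motifs. The windows of VIP, HAND2 and ISL1 also held TGACG, the first letters of the CRE, which were not marked. A match is a description of letters and not of a bound site.

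Adrenergic lineage factors were high as a list. Of 25 factors, 23 were detected, against 61.0% of all protein-coding genes, and 9 exceeded 100 TPM. The median of the list was 50.2 TPM, against 6.51 TPM over all protein-coding genes. The bHLH factor HAND2 (ENSG00000164107, chr4:173524969-173530229) led it with 552, 570 and 552 TPM and a rank between 148 and 157. The antisense gene HAND2-AS1, which overlaps it on the other strand, had 17240 to 19639 reads, and as the strand setting of the count is not given in the sources used here, reads of the pair may not be told apart where they overlap. PHOX2A, a paired-like homeodomain factor, had 534, 512 and 528 TPM. The values of HAND2 lay above those of PHOX2A in every library. HAND1 (286 ± 6.51 TPM) and the zinc finger factor GATA2 (248 ± 6.25 TPM) followed. GATA3 had 222, 226 and 225 TPM, and the LIM homeodomain factor ISL1 had 215, 217 and 215 TPM. Their ranges did not overlap, yet the gap is small, and with the longest transcript length their order turned, at 188 TPM for GATA3 and 192 TPM for ISL1. SOX4 stood at 200 ± 1.77 TPM, TFAP2B at 122 ± 4.38 TPM and SOX11 at 92.4 ± 1.08 TPM. HAND2 was 1.95 ± 0.00831 times as high as HAND1, or 5.18 times with median transcript lengths. The LIM-only factors LMO1 and LMO3 were at 10.5 ± 0.287 and 5.57 ± 0.219 TPM. DACH1 (0.748 TPM) and INSM1 (0.144 TPM, with 1, 3 and 7 reads) were under 1 TPM. Down the list, the ranges of 2 of 22 neighbouring pairs of detected factors overlapped, KLF7 with TBX2 and TBX20 with SIX3.

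Factors of the mesenchymal state were neither all absent nor all high. Of 22, 16 were detected (72.7%, against 61.0% of all protein-coding genes), and 2 exceeded 100 TPM. The median was 9.53 TPM, against 6.51 TPM over all protein-coding genes. The bHLH factor TWIST1, with 196, 194 and 197 TPM, and TEAD1, the DNA-binding partner of YAP1, with 128, 127 and 122 TPM, led the list. SNAI1 (41.6 ± 1.73 TPM), MAML2 (40.1 ± 0.878 TPM), ZEB1 (34.0 to 36.5 TPM), NOTCH2 (28.0 ± 0.368 TPM) and SNAI2 (19.3 ± 0.795 TPM) came below. YAP1 and its homolog WWTR1 were at 8.82 ± 0.342 and 9.75 ± 0.296 TPM. PRRX1, TWIST2 and MEOX2 had 0 reads in all 3 libraries, while RUNX1, RUNX2 and MEOX1 had 2 to 23 reads and reached at most 0.345 TPM. IRF1 (1.23 ± 0.127 TPM) and RUNX2 (0.259 ± 0.0860 TPM) lie on either side of 1 TPM.

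Within the MYC network, MYCN was 92.1 ± 1.12 times as high as its partner MAX, which had 52.8, 54.7 and 52.9 TPM, and 18.3 times with median transcript lengths. MYC had 25, 33 and 40 reads, or 1.02 to 1.42 TPM. The ratio of MYCN to MYC was 4727, 3856 and 3487 in the 3 libraries, and it was 3172 with the longest and 2217 with the median transcript length. MYCL was at 3.16 ± 0.167 TPM. The MLX (58.7 ± 2.11 TPM) and MXI1 (57.3 ± 2.06 TPM) levels overlapped, as did those of the repressors MXD3 and MNT (12.4 ± 0.870 and 11.4 ± 0.563 TPM). MLXIPL, the glucose-responsive partner of MLX, had 1, 8 and 0 reads. In all, 12 of the 13 genes were detected (92.3%, against 61.0% of all protein-coding genes) and MYCN alone exceeded 100 TPM.

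Genes next to MYCN on chromosome 2 are listed by position from the MYCN start (chr2:15940564 in the GRCh38 annotation used). The position is that of the lowest coordinate of each gene, whatever its strand. DDX1, an RNA helicase gene at -349.4 kb, had 343, 339 and 335 TPM, the only other protein-coding gene within 0.5 Mb by this measure. NBAS, at -773.7 kb, had 37.7 ± 1.03 TPM, and CYRIA, at 608.9 kb, had 0.815 ± 0.0808 TPM. NBAS is on the minus strand, and its own start, chr2:15561330, lies within 0.5 Mb of the MYCN start. Within 2 Mb by lowest coordinate, 5 of 10 protein-coding genes other than MYCN were detected, with a median of 7.18 TPM. TRIB2, at -3223.7 kb, had 342, 353 and 336 TPM, and the ornithine decarboxylase gene ODC1, farther out on the same arm, 346 ± 7.76 TPM. MYCNOS, which overlaps MYCN on the other strand, was at 55.1 ± 1.64 TPM with 1116 to 1215 reads. The kit was stranded, but the strand setting of the count is not given in the sources used here, so reads of MYCNOS and MYCN may not be told apart where they overlap. GACAT3, at 109.9 kb, had 338, 334 and 397 reads, and MYCNUT, at -20.2 kb, had 0 reads. Copy number was not measured in these files.

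Among 23 receptors, 16 were detected, a share close to the 61.0% of all protein-coding genes. RET, the receptor for the GDNF ligands, stood apart with 453, 479 and 460 TPM, 37.4 ± 0.824 times the level of ALK (12.3, 12.5 and 12.3 TPM) or 114 times with median transcript lengths, a receptor kinase gene that is mutated in part of neuroblastomas. Of the GDNF co-receptors, GFRA2 was highest (38.5 ± 1.22 TPM), GFRA1 and GFRA3 were at 1.59 ± 0.167 and 1.53 ± 0.0337 TPM with overlapping ranges, and GFRA4 had 0 reads. PDGFRB had 115 ± 3.42 TPM, against 17.0 ± 0.576 TPM for PDGFRA. Of the neurotrophin receptors, NTRK2 was at 0.246 ± 0.0524 TPM and NTRK3 at 0.0228 ± 0.00859 TPM, with the low-affinity receptor NGFR at 4.13 ± 0.251 TPM. ERBB3, ERBB4, EDNRB and MET had at most 0.350 TPM in every library.

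**Figure D2:**
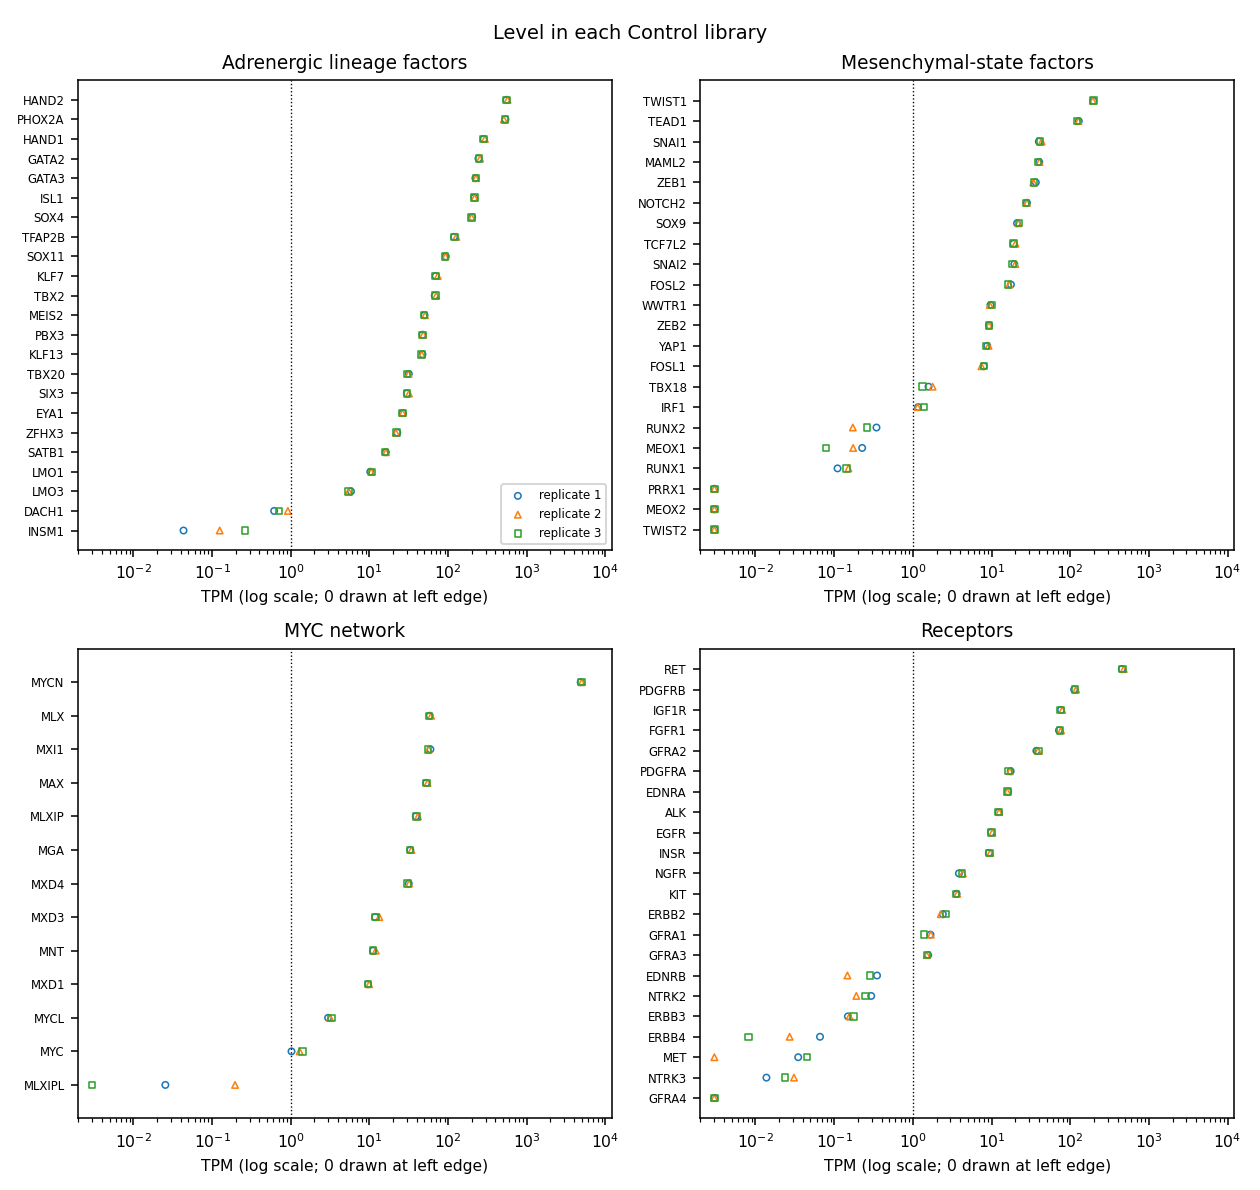
TPM (log scale) of lineage factors, mesenchymal-state factors, MYC network genes and receptors in the 3 Control libraries (circle, replicate 1; triangle, replicate 2; square, replicate 3), with 1 TPM dotted and values of 0 at the left edge. The symbols of detected genes lie almost on each other, MYCN stands alone at 4837 to 5002 TPM, and PRRX1, TWIST2, MEOX2 and GFRA4 are at 0.

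Of the secretory genes, the granins were the highest. SCG2, secretogranin II, had 1514, 1494 and 1503 TPM and rank 42. CHGA, chromogranin A, had 639, 674 and 662 TPM, and CHGB had 413, 431 and 422 TPM. The ranges of the 3 granins did not overlap. The peptides NPY (391 ± 5.28 TPM) and GAL, galanin (389 ± 8.19 TPM), overlapped, as did VGF (175 ± 4.07 TPM) and VIP (170 ± 6.87 TPM). The processing enzymes CPE, a carboxypeptidase, and PAM, which amidates peptide ends, were at 119 ± 1.12 and 109 ± 1.13 TPM, while the prohormone convertase PCSK1 was at 5.96 ± 0.0893 TPM and PCSK2 had at most 1 read per library. SST, PDYN, PENK, GRP and RESP18 had 0 reads. On either side of 1 TPM stood PCSK1 and NTS (0.221 ± 0.0625 TPM), with no member between. In all, 18 of 30 genes were detected, a share of 60.0% that lies close to the 61.0% of all protein-coding genes, but 9 exceeded 100 TPM.

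The promoter letters shown above can be set beside these levels. Of the 19 granule genes with 1 RefSeq promoter, 4 held the CRE in the 250 bases before the start, CHGA, VGF, SST and CARTPT, against 2.59% of 11161 promoters of protein-coding genes. Their levels spanned the list, from CHGA at 658 TPM to CARTPT, with 0, 1 and 2 reads, and SST, with 0. The first letters of the CRE, TGACG, were held by 11 of the 19 granule promoters, against 26.3% of the 11161. The CRE and these letters were added to the motifs after the levels had been seen.

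Catecholamine genes formed an uneven series. The noradrenaline transporter SLC6A2 was highest with 157, 159 and 156 TPM, followed by the aromatic amino acid decarboxylase DDC with 154, 147 and 152 TPM and by GCH1 (90.4 ± 1.63 TPM), which makes the cofactor of tyrosine hydroxylase. TH, the rate-limiting tyrosine hydroxylase, had 23.0, 21.4 and 21.1 TPM. DDC was 6.92 ± 0.263 times as high as TH, or 4.00 times with median transcript lengths. DBH, which turns dopamine into noradrenaline, had 13.2, 16.5 and 14.2 TPM. PNMT, which makes adrenaline, had 1 to 4 reads. Of the vesicular monoamine transporters, SLC18A1 (8.60 ± 0.603 TPM) was 23.2 ± 1.82 times as high as SLC18A2 (12 to 15 reads), or 35.9 times with median transcript lengths. Between MAOA (2.62 ± 0.0820 TPM) and SLC18A2 (0.370 ± 0.0146 TPM) the list crossed 1 TPM, and no neighbouring detected pair overlapped. In all, 9 of 13 genes were detected, close to the 61.0% of all protein-coding genes.

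All 26 synaptic and neurite genes were detected. The tubulin-binding STMN2 (701 ± 12.3 TPM) and the ubiquitin hydrolase UCHL1 (696 ± 4.98 TPM) were highest and overlapped. TUBB3, neuronal beta-tubulin, was at 317 ± 3.72 TPM, the growth cone protein GAP43 at 156 ± 5.69 TPM, and the neurofilament genes NEFL and NEFM at 106 ± 1.12 and 105 ± 0.251 TPM. Vesicle proteins were lower, at 44.8 ± 0.672 TPM for SYT1, 39.5 ± 1.22 TPM for SNAP25 and 6.48 ± 0.487 TPM for SYN1.

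Integrins, the heterodimeric receptors for matrix, were detected for 14 of 26 subunits (53.8%), near the 61.0% of all protein-coding genes. ITGB1, a beta subunit shared by many pairs, had 430, 418 and 414 TPM, and ITGAV had 123, 118 and 117 TPM. The level of ITGB1 was 3.52 ± 0.0367 times that of ITGAV. ITGB5 and ITGA1 overlapped at 35.1 ± 0.877 and 34.9 ± 0.959 TPM, and ITGA2 (18.1 ± 0.576 TPM), ITGA11 (14.6 ± 0.699 TPM) and ITGA9 (10.4 ± 0.480 TPM) were lower. ITGA2B, ITGA7 and ITGA8 straddled 1 TPM, with 45 to 81 reads. Leukocyte subunits were not all absent. ITGB2, ITGAM, ITGAX and ITGAD had at most 4 reads per library, but ITGAE and ITGA4, which leukocytes also carry, were detected.

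Of 20 cadherins, 6 were detected, a smaller share than the 61.0% of all protein-coding genes. CDH2, N-cadherin, had 359, 359 and 349 TPM and CDH24 had 112, 118 and 118 TPM. CDH11 was at 14.8 ± 0.407 TPM and CDH10, CDH18 and CDH4 were at 4.24 to 7.45 TPM. CDH1, E-cadherin, had 1 read in each library and CDH9 had 0. CDH22 was the first under 1 TPM (0.645 ± 0.295 TPM, 21, 41 and 20 reads). Of 18 neural adhesion molecules 17 were detected, led by CD24 (903 ± 12.3 TPM, rank 73) and ALCAM (322 ± 4.27 TPM). THY1 and NRCAM were at 139 ± 0.796 and 139 ± 1.87 TPM, L1CAM at 82.3 ± 1.63 TPM and NCAM1 at 50.1 ± 0.995 TPM. CHL1, a homolog of L1CAM, had 1 to 3 reads.

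Matrix genes were detected for 24 of 29 members (82.8%, against 61.0% of all protein-coding genes). Their median was 35.7 TPM, and 8 members exceeded 100 TPM. The proteoglycan BGN had 378, 377 and 372 TPM and the metalloproteinase inhibitor TIMP2 had 372, 367 and 374 TPM, with overlapping ranges. SPARC (327 ± 9.76 TPM), VCAN (302 ± 7.27 TPM), LAMB1 (250 ± 7.64 TPM) and LAMC1 (203 ± 5.47 TPM) followed. COL1A1 had 136, 140 and 137 TPM, whereas COL1A2, whose chain joins COL1A1 in type I collagen, had 16, 18 and 16 reads. The ratio of COL1A1 to COL1A2 was 769, 735 and 900. COL4A1 and COL4A2, the chains of basement membrane collagen, were at 65.6 ± 0.426 and 79.9 ± 2.56 TPM, and FN1, fibronectin, was at 31.8 ± 0.595 TPM. LOX lay at the threshold of 1 TPM, with 47, 47 and 50 reads.

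**Figure D3:**
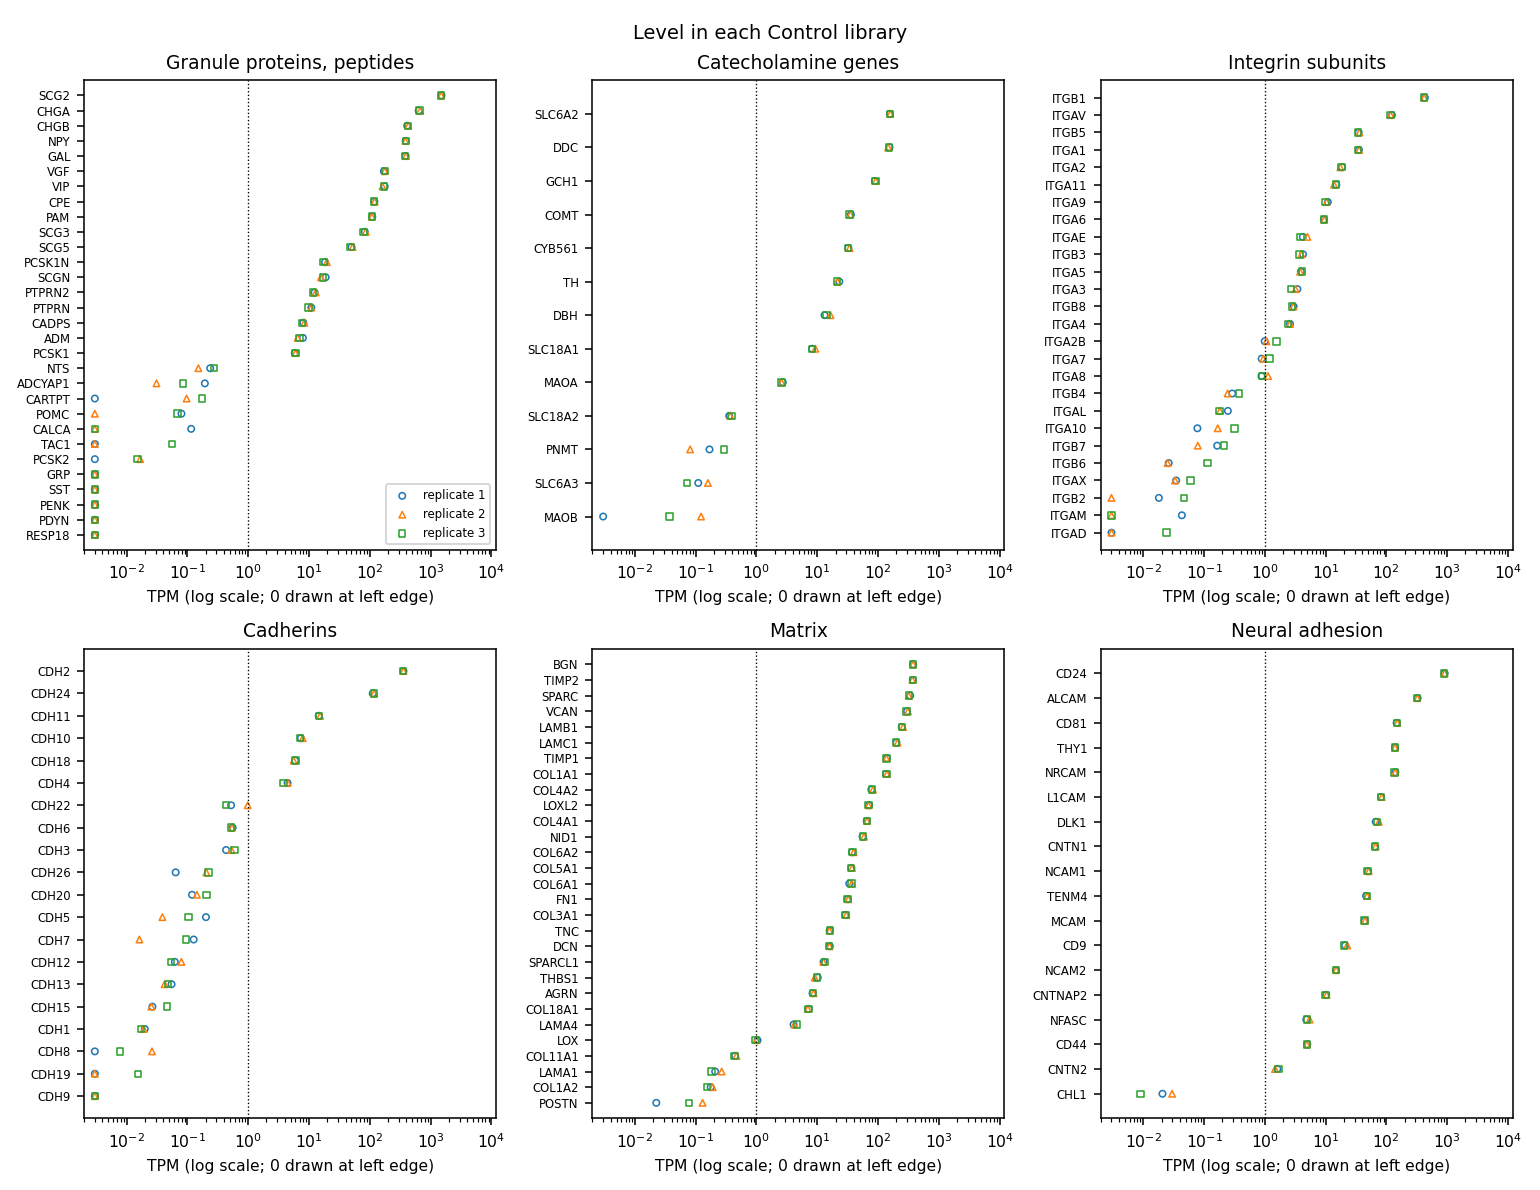
TPM (log scale) of granule, catecholamine, integrin, cadherin, matrix and neural adhesion genes in each Control library, with the same symbols, the dotted line at 1 TPM and values of 0 at the left edge. The symbols spread most under 1 TPM, SCG2 is the highest gene at 1494 to 1514 TPM, and COL1A2 lies far below COL1A1.

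The mSWI/SNF subunits, which include the targets of the study, were all detected (28 of 28), with a median of 35.1 TPM. ARID1A had 40.03, 42.2 and 42.0 TPM from 5191, 5695 and 6293 reads, and ARID1B had 13.6, 13.7 and 13.4 TPM from 4932, 5186 and 5638 reads. On the TPM scale ARID1A was 3.05 ± 0.0920 times as high, but the merged exons of ARID1B span 44677 bases against 10813 for its longest transcript, and with the longest transcript lengths the ratio was 1.37, at 58.4 and 42.5 TPM. SMARCC1 was highest (138 ± 1.49 TPM), with SMARCD2 (127 ± 2.12 TPM), SMARCA4 (113 ± 1.61 TPM), ACTL6A (112 ± 0.758 TPM) and SMARCD1 (101 ± 2.09 TPM) next. The ATPase SMARCA4 was 8.74 ± 0.241 times as high as the alternative ATPase SMARCA2 (12.9 ± 0.173 TPM), a ratio of 1.502 with median transcript lengths. ACTL6A was 17.6 ± 0.437 times as high as ACTL6B (6.36 ± 0.152 TPM), the subunit of neuronal complexes, or 38.5 times with median transcript lengths. ARID2, of the PBAF complex, was at 34.0 ± 1.69 TPM and BRD9, of the non-canonical complex, at 31.0 ± 1.08 TPM. Many neighbours in this list did not differ beyond their spread, since 11 of 27 adjacent pairs overlapped.

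Cell cycle genes were detected for 24 of 26 members (92.3%, against 61.0% of all protein-coding genes). Cyclin D1, CCND1, had 861, 866 and 852 TPM (rank 79), and its paralog CCND2 had 0 reads while CCND3 was at 15.5 ± 0.195 TPM. PCNA (738 ± 17.0 TPM), CDK4 (447 ± 5.76 TPM), TOP2A (426 ± 6.97 TPM) and MKI67 (234 to 241 TPM) were high. The inhibitor CDKN1A, p21, was at 5.003 ± 0.499 TPM, and CDKN2B was at 0.394 ± 0.241 TPM. Immediate early genes, hypoxia-induced genes and interferon-stimulated genes were detected for 13 of 15, 11 of 12 and 6 of 15 members. The highest members of these lists had, in the same order, 136, 65.7 and 42.9 TPM. EGR1, of the first list, was at 93.1 ± 2.58 TPM, and P4HA1, of the second, at 65.7 ± 1.88 TPM. FOS was at 3.20 ± 0.320 TPM, CA9 at 0.725 ± 0.271 TPM and IFIT1 at 0.507 ± 0.0257 TPM. Of 64 replication-dependent histone genes, whose transcripts mostly lack a poly(A) tail, 16 were detected and the highest had 66.1 TPM. All 14 genes often used as references were detected, GAPDH and ACTB being the highest.

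Promoter letters moved with level across genes, which are not independent replicates. Over the 11161 protein-coding genes with 1 RefSeq promoter, searched on both strands over the 250 bases before the start, 10.1% held TATAAA. The share was 35.7% for CCAAT, 57.5% for the letters GGGCGG and 7.88% for the E-box CACGTG. The GC box was present before 22.8% of the 2184 genes with 0 reads, 47.9% of those above 0 and under 1 TPM, and 73.1% of those at 10 to 100 TPM. TATAAA went the other way, from 23.8% of genes with 0 reads to 3.90% at 10 to 100 TPM, and was back at 17.6% in the 34 genes of 1000 TPM or more. The share with CCAAT was 36.0% at 0 reads and 40.4% at 100 to 1000 TPM, and that with the E-box was 4.03% and 10.5% in the same bins. The median GC content was 49.6% at 0 reads and 66.0% at 10 to 100 TPM. Of the 11 lineage factors with 1 promoter, 7 held CCAAT, 6 the GC box and none the E-box. Over all promoters the shares were 35.7%, 57.5% and 7.88%. The GC box and E-box counts lie near those shares for a list of this size.

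The 3 libraries were close to each other, but differed by more than counting error. Values normalized by the authors' size factors had a median coefficient of variation (CV) of 2.98% over 12154 genes with a mean of at least 100 reads, and 5.94% of these genes exceeded 10%. The chi-square per degree of freedom was 1.93 to 2.37 for the 3 pairs of libraries, where sampling noise alone gives about 1, so no library was counted as a repeat of another. The median biological CV of edgeR, which leaves out counting error, was 3.16% per gene over 16291 genes. A chi-square test of each gene's reads against counting error, with Benjamini-Hochberg adjustment over those genes, called 790 (4.85%). This test compares these libraries and no conditions. The share called lay between 2.32% and 3.76% in the 5 bins of depth from 10 to 3000 reads, with no order, and was 8.34% of genes with 3000 to 10000 reads, 29.4% of those with 10000 to 30000 and 74.0% of the 73 genes with 30000 reads or more.

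**Figure D4:**
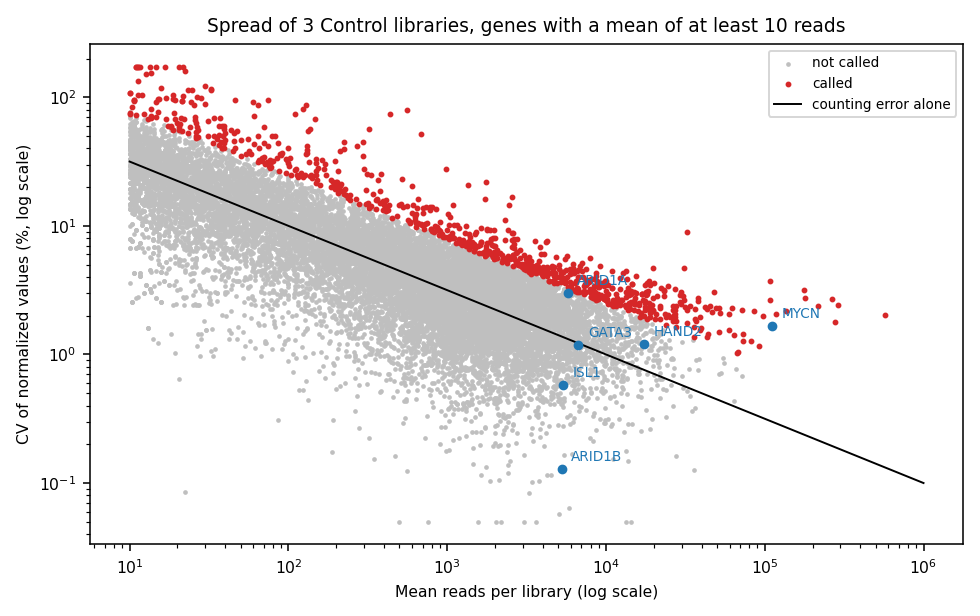
CV of the normalized values (%, log scale, values under 0.05 drawn there) against mean reads per library (log scale) for genes with a mean of at least 10 reads, with called genes in red and the line of counting error alone. The called genes lie along the upper edge, and MYCN is called at a CV of 1.66% because counting error at its depth is 0.300%.

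Of the 24 lineage factors tested, 1 was called, a share near the 4.85% of all genes tested. It was PHOX2A (CV 2.89%, adjusted p = 0.0298 in the chi-square test), and it was no longer called after scaling to total reads (adjusted p = 0.121), with DESeq2 size factors, or without replicate 1 or 2 (adjusted p = 0.0610 and 0.982). HAND2, GATA3 and ISL1 had CVs of 1.20%, 1.19% and 0.581% and were not called. MYCN was called with normalized values of 120355, 123481 and 124192 (adjusted p = 2.32e-11), lowest in replicate 1, and was not called without that library (adjusted p = 0.656). CHGA, also lowest in replicate 1 (CV 2.62%, adjusted p = 0.000527), was not called without it either (adjusted p = 0.996).

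Counts of called genes in the other lists are to be read against the 4.85% of all genes tested and the higher share at high depth. RET (CV 2.38%) and FGFR1 (CV 2.71%) were called among 19 receptors, ITGAV (CV 2.92%) and ITGB1 (CV 1.88%) among 20 integrins, and VCAN, COL4A2, LAMB1, TIMP2 and SPARC among 28 matrix genes, with CVs of 1.56% to 3.29%. Without replicate 2 none of these 9 genes was called, and without replicate 1 VCAN, LAMB1 and TIMP2 remained. TIMP2 was also lost without replicate 3. The calls of ITGAV and ITGB1 were lost under every other scaling tried (adjusted p = 0.0679 to 0.118). None of 18 mesenchymal factors, 10 catecholamine genes and 10 cadherins was called, which at 4.85% of all genes says nothing particular about lists of this size. Of the reference genes 7 of 14 were called, with CVs of 1.96% for YWHAZ to 6.38% for GUSB, GAPDH at 2.65% and ACTB at 1.99% among them. YWHAZ was not called after scaling to total reads. Without replicate 2 ACTB was the only 1 of the 7 still called, and without replicate 3 ACTB was not (adjusted p = 0.506). Among the 28 mSWI/SNF genes, ARID2 (CV 4.37%) and BCL7C (CV 12.3%) were called, a share close to the 4.85% of all genes. Both were lost without replicate 1, ARID2 also without replicate 3 and with TMM, and BCL7C also without replicate 2, whereas ARID1A and ARID1B had CVs of 3.03% and 0.129% and were not called.

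Most ribosomal protein genes were lowest in the same library. Of 83 tested, 47 were called, against 4.85% of all genes, and 78 were lowest in replicate 2. Among genes with at least 10000 reads, 44 of 64 ribosomal protein genes and 122 of 420 other genes were called. Over all genes tested, 31.7%, 38.0% and 30.3% were lowest and 38.0%, 31.6% and 30.4% highest in replicates 1, 2 and 3. The median deviation of the ribosomal protein genes from the gene mean was 1.26%, -2.41% and 1.16% in replicates 1, 2 and 3. With scaling to total reads 69 were lowest in replicate 2 and 30 were called, and without replicate 2 the number called was 3. At 10000 reads or more, 63 of 64 ribosomal protein genes and 218 of 420 other genes were lowest in that library. Gene length moved with this too, over protein-coding genes with a mean of at least 100 reads. Under 1000 bases 41 of 75 were lowest in replicate 2, and at 1000 to 2000 bases 375 of 676. Of those of at least 8000 bases, 970 of 2718 were. Of the tested ribosomal protein genes, only RPS12 (767 bases) was under 1000 bases. The bin under 1000 bases also held mitochondrially encoded genes. The part of length in the result was not tested.

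Mitochondrially encoded genes had another pattern. Of 15 tested, 14 were called, against 4.85% of all genes tested. MT-ND6 aside, each had over 10000 reads. At that depth 29.4% of genes with 10000 to 30000 reads and 74.0% of those with 30000 or more were called. Of the 15 genes, 13 were highest in replicate 3 (30.4% of all genes tested were) and 13 lowest in replicate 1 (31.7%). Their share of reads was 6.35%, 6.49% and 6.63% in replicates 1, 2 and 3. With scaling to total reads 12 were highest in replicate 3.

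**Figure D5:**
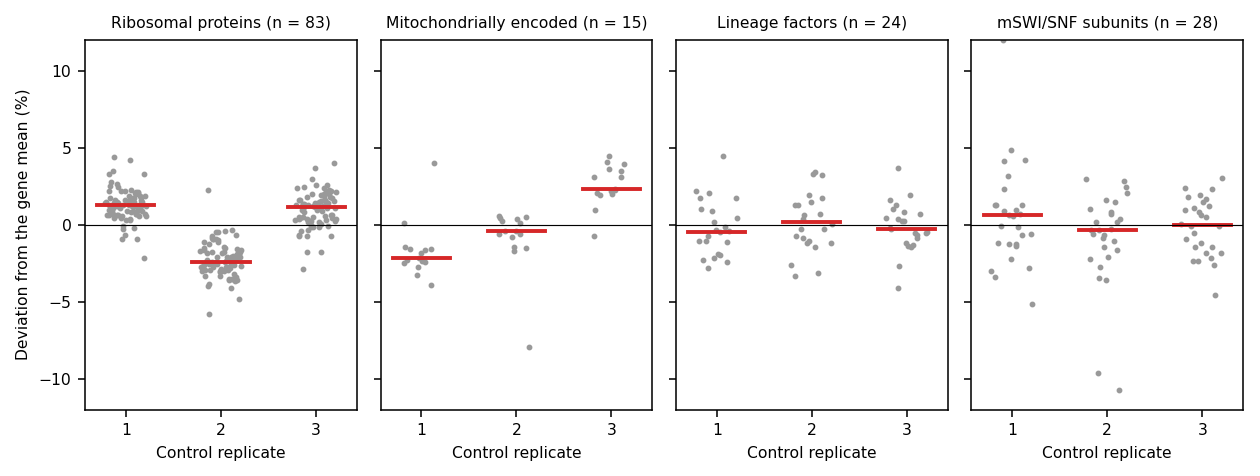
Deviation of each gene's normalized value from its mean over the 3 Control libraries (%), by replicate, for tested ribosomal protein, mitochondrially encoded, lineage factor and mSWI/SNF genes (grey points), with the median as a red line. The ribosomal proteins sit below 0 in replicate 2 with a median of -2.41%, the lineage factors have medians of -0.442%, 0.204% and -0.268%, and 1 lineage factor and 1 mSWI/SNF gene have a value beyond the axis of 12%.

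The genes of highest CV among those with at least 100 reads were mostly copies or read-through transcripts. Whether reads were split differently between such genes in each library was not tested. SMIM11B had 176, 212 and 1 reads (CV 86.6%), beside 218, 197 and 471 reads for its near-identical copy SMIM11A. AC087721.2 had 122, 19 and 230 reads, FAM156B 41, 767 and 862 reads and RGPD5 731, 467 and 113 reads, against 331, 603 and 1118 reads for its paralog RGPD6. POC1B-GALNT4 had 20, 178 and 133 reads, BLOC1S5-TXNDC5 had 107, 63 and 271, TGIF2-RAB5IF had 191, 50 and 172, DUS4L-BCAP29 had 106, 374 and 484 and AC005538.2 had 197, 133 and 66. Of 34 genes whose symbol joins the names of a pair of genes, 15 were called, against 642 of all 12154 genes with at least 100 reads (5.28%). This list was drawn up after the values had been seen, and the levels of such genes are uncertain. At the other end, SLC7A14 (466, 489 and 533 reads), AP1M1, JTB, HIF1AN and MAP3K1 had CVs of 0.00999% to 0.0193%, far under their counting error. They were picked as the lowest of the 12154 genes, and none was called.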

How the data were processed

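RNA-Seq was made from polyadenylated RNA of SK-N-BE(2) cells with a stranded kit, and the 3 Control libraries of 21 were used. The submitters' processing notes name STAR 2.5.3a, RSEM 1.3.0, DESeq2 1.26.0 and GRCh38, without their roles. The authors deposited a signal per gene, which is the recovered read number over a size factor of its library (0.851, 0.893 and 0.974). Whole reads were recovered for 100% of values, within 0.00494 read, which gave 30579746, 31829634 and 34973565 reads, the depth that sets the precision of each value. How reads shared by near-identical or overlapping genes were assigned is not given in the sources used here, so such genes are uncertain. The chi-square test against counting error leaves out error in that assignment. The deposited comparison tables hold the authors' fold changes and p-values and were not used.

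TPM was computed from the reads and the merged exon length in GENCODE 29 (GRCh38). Of 60728 gene identifiers, 58496 had a length when matched without version, and the remaining 2232 have no TPM. Genes counted as detected at 1 TPM or more in all 3 libraries. Spread beyond counting error was tested with a chi-square on 2 degrees of freedom against the authors' size factors over genes with a mean of at least 10 reads, at an adjusted p of 0.05, and dispersion came from edgeR 4.0.16 with TMM. Both were tested on simulated data, in which the added spread was larger than that of most genes here. Recovery of smaller spreads was not tested. Further tools were matplotlib 3.10.9, scipy 1.17.1, pandas 2.3.3, numpy 2.4.6, Python 3.11.15, R 4.3.3 and DESeq2 1.42.0. Promoters were from RefSeq (GRCh38.p14), for symbols with 1 window.

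Genes named are HAND2, GATA3, MYCN, ISL1, ARID1A and ARID1B, the 20 highest genes and 5 highest long non-coding genes. Also named are the 10 of highest and 5 of lowest CV. From most lists, the highest members, members at 0 and members near 1 TPM are named. Other members of the lists were named after their values were seen. Members and lists were chosen with earlier results of these data known. Levels are a description without a test, as there is 1 group. The p-values measure departure from counting error between these libraries, which depends on depth, and not the size of the spread. Alternatives were other gene lengths, thresholds, scalings and filters, and each library left out. Some members that count in the lists are not reported here by name.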

Additional observations from a re-analysis of the deposited data

How the results depend on the processing

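Levels depended on gene length and on the genes scaled over. With the longest transcript length, the levels of MYCN, GATA3 and ISL1 were 3742, 188 and 192 TPM, and with the median transcript length those of MYCN, HAND2, GATA3 and ISL1 were 1574, 391, 112 and 135 TPM. Scaled over nuclear protein-coding genes alone they were 6736, 763, 307 and 295 TPM. Ranks of MYCN, HAND2, GATA3 and ISL1 were 16, 181, 749 and 718 with the longest length, 42, 399, 1945 and 1579 with the median length, and 9, 193, 867 and 1184 by reads. As shares of TPM, mitochondrially encoded genes, ribosomal proteins, the 10 and the 100 highest genes, protein-coding and long non-coding genes took 23.8%, 6.25%, 21.7%, 37.4%, 94.6% and 1.41%. Detected genes stayed within 1.5 times of 12146 under the lengths and thresholds tried.

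The count of genes beyond counting error was 266 to 682 with a library left out, 266 without replicate 2 and 335 without replicate 1, where fewer libraries are tested. Of 25 named genes called, 5 stayed called without replicate 2 and 10 without replicate 1. The other scalings and filters gave 671 to 759. The median biological CV was 12.5% without a filter on low counts and 5.76% from DESeq2, and 2.51% to 3.56% with a library left out, and the common biological CV was then 1.65% to 2.50%. Scaling to totals without mitochondrial and ribosomal protein genes was added after seeing the data and gave 737 calls. Promoter shares moved by less than their counting interval when genes were binned with the longest transcript length. No paired analysis was possible because there is 1 group and no comparison between groups. Depth limits genes under about 30 reads, whose median CV was 22.8%.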
